A study of Homo sapiens with 42 samples.

Results

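The annotated readthrough genes are gene models whose hyphenated symbol joins the symbols of a pair of neighbouring genes. A row of the count tables was a member if its symbol contained a hyphen that split it into 2 parts, each of which was the symbol of another row. The rule used names only and no measured value. It found 128 members among 58243 gene IDs, or 0.22%. In 127 members both named genes lay on the chromosome and strand of the member with the first-named gene upstream. The exception was BORCS7-ASMT, because the row with the symbol ASMT lay on another chromosome. In GENCODE 44, 113 members were protein-coding and 15 were long noncoding RNAs. The first-named gene is called the upstream gene below and the second-named gene the downstream gene.

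K562 is an established human cell line from chronic myeloid leukaemia that depends on the fusion kinase BCR-ABL1. The question behind the design was how transcription past gene ends and splicing change under drug treatment. Poly(A)-selected RNA from whole cells (mRNA) was sequenced in 9 groups: untreated cells (CTRL), 1 μM imatinib (IM, an inhibitor of BCR-ABL1) for 1, 6 and 18 h, 5 μM JTE-607 (JTE, an inhibitor of the nuclease CPSF73 that cuts transcripts at their 3′ ends) for 1, 6 and 18 h, and 110 mM KCl (hyperosmotic stress) for 1 and 3 h. Nuclear RNA depleted of ribosomal RNA was sequenced in 5 groups, which were CTRL, IM for 1 and 18 h, JTE for 1 h and KCl for 1 h. All cells carried the same K562 genotype, and each group held 3 biological replicates, so there were 27 mRNA and 15 nuclear libraries. K562 is 1 line, so the replicates are repeat experiments on the same cells.

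A protein-coding gene normally ends its transcript where the polymerase passes a polyadenylation signal, most often AATAAA, and the cleavage machinery cuts the RNA. When this cut does not occur, the polymerase can run on into the next gene. The long precursor can then be spliced from an exon of the upstream gene to an exon of the downstream gene, which gives a single mRNA that joins parts of both. Annotation projects record such joined transcripts as genes of their own, and some of them encode a fusion of both proteins.

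What the count tables can say about these genes is set by their exons. Members had a median of 2626.5 exonic bases, but a median of only 83.5 bases lay in no exon of any other gene on either strand (here called own bases). The median share of own bases was 2.6%, against 100% for protein-coding genes with no hyphen in their symbol. No own base was left in 44 members, and 68 members had under 100. Read pairs that stayed ambiguous between genes were dropped in counting. The 44 members with no own base still held 262 counts in mRNA and 94 in nuclear RNA. Not every pair over shared exons was therefore dropped. How many pairs over the joins of the members were kept or dropped cannot be read from the count tables. Of the 59046 own bases of the other 84 members, 19.1% lay in introns of the upstream gene, 41.0% in introns of the downstream gene and 39.9% outside both genes. A further property was that 21.5% of the own bases lay opposite a gene on the other strand. Strand was kept in library making but not used in the stated counting command, so RNA from the opposite strand cannot be told apart there. A count of a member whose own bases lie in introns of a parent can also hold unspliced RNA of that parent.

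GENCODE 44 gave 115 members a transcript that splices an exon of the upstream gene directly to an exon of the downstream gene. In 89 of them coding sequence lay on both sides of this join. The shortest joining intron was over 10000 bases in 67 members and at most 10000 in 48, with a median of 13360 bases. The aligner was set to allow introns of at most 10000 bases, so pairs across the longer joins could not be aligned as spliced. The joins of 7 members are printed below, since the comparisons turn on them or the study followed them as chimeras, and the join is the only sequence that sets the joined mRNA apart from its parents. Each line holds 60 bases of the transcript 5′ to 3′, read from hg38, all of them coding, with 8 bases on either side of the join in capitals.
RBM14-RBM4: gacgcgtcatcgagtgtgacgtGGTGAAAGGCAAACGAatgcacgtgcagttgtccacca
ARPC4-TTLL3: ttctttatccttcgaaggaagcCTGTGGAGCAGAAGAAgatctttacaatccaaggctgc
SENP3-EIF4A1: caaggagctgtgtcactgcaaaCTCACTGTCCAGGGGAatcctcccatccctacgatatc
PPT2-EGFL8: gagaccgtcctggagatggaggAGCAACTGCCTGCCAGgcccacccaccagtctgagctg
JMJD7-PLA2G4B: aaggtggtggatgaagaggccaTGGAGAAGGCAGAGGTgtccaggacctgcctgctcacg
LY6G6F-LY6G6D: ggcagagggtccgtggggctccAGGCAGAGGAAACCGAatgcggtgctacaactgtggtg
ATP5MF-PTCD1: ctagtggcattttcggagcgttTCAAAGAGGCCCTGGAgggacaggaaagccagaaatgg

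In the files RBM14-RBM4 is ENSG00000248643 (chr11:66616626-66646469), SENP3-EIF4A1 is ENSG00000277957 (chr17:7563287-7578715), PPT2-EGFL8 is ENSG00000258388 (chr6:32153845-32171978) and JMJD7-PLA2G4B is ENSG00000168970 (chr15:41828095-41848155), all on the plus strand of hg38. Others that recur below are TIMM23B-AGAP6 (ENSG00000178440, chr10:49972763-49982053, plus strand), ANKHD1-EIF4EBP3 (ENSG00000254996, chr5:140401908-140549569, plus strand) and P2RX5-TAX1BP3 (ENSG00000257950, chr17:3663063-3696194, minus strand). On hg38 the printed RBM14-RBM4 join runs from chr11:66617057, the end of exon 1, to chr11:66643450, the start of exon 2, over an intron of 26392 bases on the plus strand. That of ARPC4-TTLL3 runs from chr3:9801756 in exon 4 to chr3:9812943 in exon 5, over 11186 bases on the plus strand. Both introns exceed the 10000 bases that the aligner allowed, as does the ATP5MF-PTCD1 intron of 24817 bases on the minus strand of chromosome 7. The introns of SENP3-EIF4A1 (804 bases, chromosome 17), PPT2-EGFL8 (1956 bases, chromosome 6), JMJD7-PLA2G4B (3606 bases, chromosome 15) and LY6G6F-LY6G6D (5320 bases, chromosome 6) were within it. The other signal of interest is the end of the upstream gene. AATAAA on the gene's own strand lay in the last 40 bases of 69 of 115 upstream genes (60.0%), of 66 of 114 downstream genes (57.9%) and of 56.8% of 19595 protein-coding genes that are no member. The share in upstream genes was thus close to that in all coding genes. ANKHD1, whose readthrough gene rose after JTE and KCl in nuclear RNA, holds it in its last 30 bases (hg38, chromosome 5, plus strand), in capitals here.
ANKHD1 end: attcAATAAAaagatgaacagtctttagaa

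The mRNA libraries held between 16439848 and 62953314 counts, and the nuclear ones between 16175394 and 25103205. Levels are given as CPM, the count of a gene over the library total after TMM scaling and times 1e+06. In bulk RNA, fewer cells that make a transcript and less of it per cell cannot be told apart. K562 markers were present in every library, with GATA1 at 118 to 204 CPM in mRNA and HBG2 at 693 CPM or more. The T cell marker CD2 and the B cell marker MS4A1 had medians of 0, while the epithelial marker KRT8 stood at 83.5 to 282 CPM in mRNA. Among the mRNA libraries, 6 of 8 treated libraries numbered replicate 3 deviated most like CTRL replicate 3, and those of IM 18 h and JTE 18 h did not. All treated libraries numbered 1 and 2 likewise deviated most like a single CTRL library, as given in the closing part. For the 29 members whose own bases, at least 100, lay mostly in introns of a parent, summed CPM was lowest in replicate 3 in 7 of 9 mRNA groups (6.93 to 11.8 in replicate 3 and 8.22 to 15.5 in the others). For the 31 members with own bases mostly outside both parents it was lowest there in 2 of 9 groups. Each count of calls below was therefore also run without mRNA replicate 3 of every group, an alternative added after seeing the data.

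Counts over the members were low. Over all 27 mRNA libraries 29 members had no count, over the 15 nuclear libraries 42 had none, and 25 had none in either. The low-count filter passed 19 members in mRNA and 27 in nuclear RNA. In all, 18 passed in both fractions and 100 in neither. Members with at least 100 own bases (60 of the 128) held 93.7% of all member counts in mRNA and 95.1% in nuclear RNA. The 44 members with no own base held 262 counts in mRNA and 94 in nuclear RNA, and none of them passed the filter. The largest of these sums were those of NME1-NME2, which joins a pair of nucleoside diphosphate kinases, at 71 counts in mRNA and 33 in nuclear RNA, and of TVP23C-CDRT4, at 49 and 18; both were picked out after their values were seen.

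**Figure D1:**
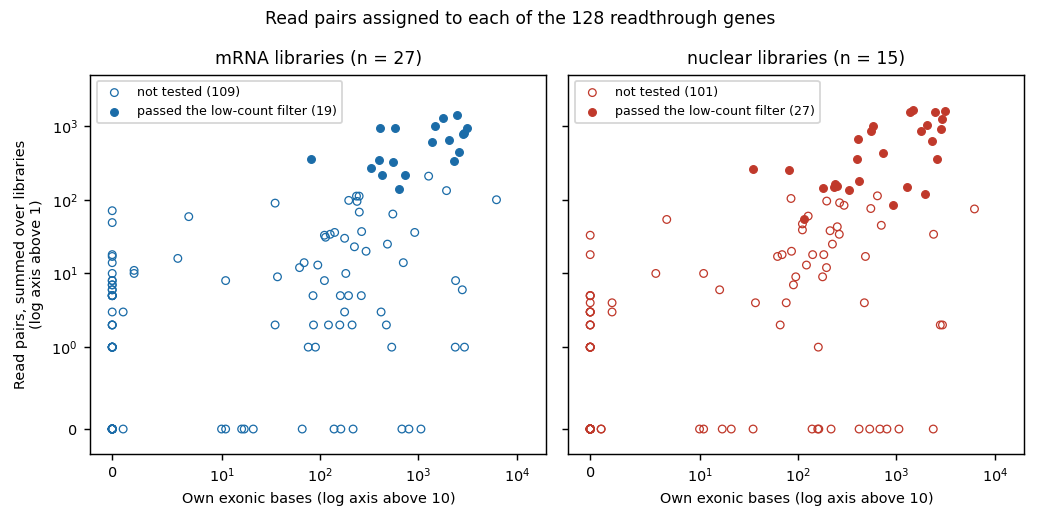
Read pairs assigned to each of the 128 readthrough genes, summed over the 27 mRNA libraries (left) and the 15 nuclear libraries (right), against the number of exonic bases that no other gene shares; filled points passed the low-count filter. Genes with no own base, at 0 on the x axis, stay at or below 71 pairs in mRNA and 33 in nuclear RNA, and the 19 and 27 filled points all have at least some own bases.

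Summed over all members, the level in mRNA was 23.1 ± 3.8 CPM in CTRL (SD, n = 3 in every group). After IM it was 25.2 ± 1.93 at 1 h, 26.7 ± 3.31 at 6 h and 25.6 ± 3.59 at 18 h. After JTE it was 23.4 ± 2.15 at 1 h, 26.1 ± 2.75 at 6 h and 24.6 ± 1.59 at 18 h. After KCl it was 22.4 ± 0.275 at 1 h and 18.4 ± 1.98 at 3 h. In nuclear RNA the sum was 56.9 ± 4.01 CPM in CTRL, 52.8 ± 2.21 after IM 1 h, 58.9 ± 2.26 after IM 18 h, 58.3 ± 0.898 after JTE 1 h and 53.2 ± 8.61 after KCl 1 h. In every treated group the range of the 3 libraries overlapped that of the CTRL libraries of its fraction, so the summed level of the members set no treatment apart. The nuclear sums all lay above the mRNA sums.

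The 5 members with the highest mean level in mRNA were ANKHD1-EIF4EBP3 (2.35 CPM), ARMCX5-GPRASP2 (2.19), TIMM23B-AGAP6 (1.74), ZNF8-ERVK3-1 (1.69) and RTEL1-TNFRSF6B (1.58). In nuclear RNA they were ZNF8-ERVK3-1 (5.22 CPM), RTEL1-TNFRSF6B (4.99), ANKHD1-EIF4EBP3 (4.89), PPT2-EGFL8 (4.87) and JMJD7-PLA2G4B (3.91). ZNF8 is a zinc finger protein and ERVK3-1 derives from an endogenous retrovirus. RTEL1 is a helicase that acts at telomeres, and TNFRSF6B is a decoy receptor for death ligands. All 1462 own bases of ZNF8-ERVK3-1 lay in ZNF8 introns, and 2678 of the 3092 own bases of RTEL1-TNFRSF6B lay in RTEL1 introns. Per 1000 own bases, where the member and both parents had at least 100 of them, the member's CTRL level in mRNA was a median of 33.5% of the upstream gene's (14 members) and 45.8% of the downstream gene's (14 members). In nuclear RNA these medians were 34.7% (23 members) and 57.3% (22 members). The spread was wide: PPT2-EGFL8 stood at 2.67% of PPT2 in mRNA, whereas RBM14-RBM4 stood at 10.1% of RBM14 and 77.0% of RBM4. Some members stood above a parent. In mRNA ANKRD62P1-PARP4P3 was at 563% of ANKRD62P1 and STX16-NPEPL1 at 707% of NPEPL1, and in nuclear RNA ANKRD62P1-PARP4P3 was at 2300% of ANKRD62P1. Below both parents lay 7 members in mRNA and 14 in nuclear RNA. Each level divides all counts of a gene, pairs kept over shared exons included, by its own bases.

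Untreated nuclear RNA was set against untreated mRNA in 1 edgeR fit of the 6 CTRL libraries (quasi-likelihood test; a gene was called, here and below, when its Benjamini-Hochberg adjusted p was under 0.05 and its log2 fold change was beyond 0.6 in size). Of 18 members tested, 11 were higher in nuclear RNA and 0 lower, beside 44.9% of all tested genes called, 23.9% higher and 21% lower. DESeq2 called 13 members, adding ABHD14A-ACY1 and TPTEP2-CSNK1E, and its share of all genes called is not given. Of the 18, 7 passed the filter on low counts through the nuclear libraries alone, among them 4 of the 11 called (ATP5MF-PTCD1, HNRNPUL2-BSCL2, STX16-NPEPL1 and ZNF670-ZNF695), so for these the filter itself favoured a higher nuclear value. The members' median log2 fold change was 1.14, against 0.02 over all genes tested. The downstream genes had a median of 0.46 and the upstream genes of 0.05. The fractions also differ in poly(A) selection against ribosomal RNA depletion, so this difference covers both location and selection, which cannot be told apart.

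ATP5MF-PTCD1, which joins a subunit of the mitochondrial ATP synthase to a mitochondrial RNA-binding protein, had 0 counts in all 3 mRNA CTRL libraries and 13, 13 and 21 in the nuclear ones. Against a floor of 3 counts per mRNA library, its nuclear level of 0.738 CPM was at least 4.53-fold higher (adjusted p = 0.000226, edgeR). Its own bases, 178 in all, lay in PTCD1 introns and opposite CPSF4, a subunit of the cleavage machinery, which was not called (0.21 ± 0.12, SE). HNRNPUL2-BSCL2, of an RNA-binding protein and the lipid droplet protein seipin, stood at 0.220, 0.105 and 0.112 CPM in mRNA and at 0.536, 1.14 and 0.891 in nuclear RNA. Its log2 fold change was 2.13 ± 0.50 (SE, adjusted p = 0.00266, edgeR), and it had only 35 own bases. PPT2-EGFL8 joins a lysosomal thioesterase to an EGF-like secreted protein. It stood at 0.992, 0.733 and 0.948 CPM in mRNA and at 4.16, 4.28 and 5.30 in nuclear RNA, with a log2 fold change of 1.97 ± 0.25 (adjusted p = 2.62e-05). The libraries of the fractions did not overlap for any of these 3 genes.

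RBM14-RBM4 joins a pair of RNA-binding proteins that act in transcription and splicing. It stood at 1.49, 0.629 and 1.06 CPM in mRNA and at 3.22, 3.33 and 4.41 in nuclear RNA (log2 fold change 1.40 ± 0.30, adjusted p = 0.00154). RBM4 itself was higher by 1.42 ± 0.16, and 492 of the 550 own bases of the member lay in RBM4 introns. ZNF670-ZNF695 went the other way from its upstream gene: the member was higher by 1.39 ± 0.34 while ZNF670 was lower (log2 fold change -0.73 ± 0.18). STX16-NPEPL1 was higher by 1.37 ± 0.39 while STX16 was lower (-0.64 ± 0.13) and NPEPL1 higher (1.93 ± 0.29). The own bases of ZNF670-ZNF695 (2245 of 2301) and of STX16-NPEPL1 (all 728) lay in introns of the downstream gene. These last 2 members were picked out after their values were seen. The call of SUGT1P4-STRA6LP (0.90 ± 0.31) was lost without mRNA CTRL replicate 1 (0.60, adjusted p = 0.104) or nuclear CTRL replicate 1 (0.89, adjusted p = 0.0585).

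**Figure D2:**
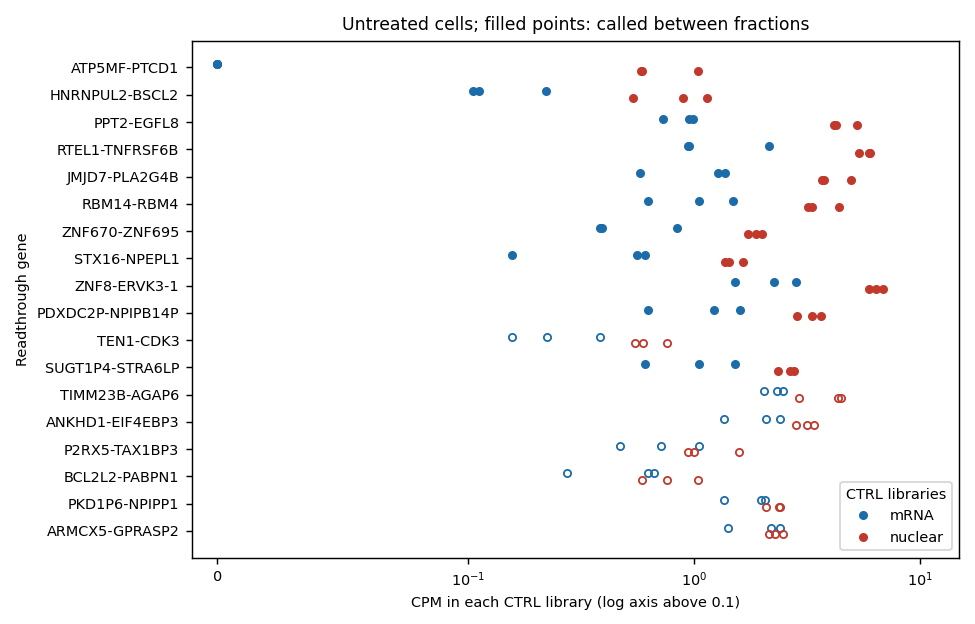
CPM of the 18 readthrough genes tested between fractions in each of the 3 CTRL libraries of mRNA (blue) and nuclear RNA (red), ordered by log2 fold change; filled points mark the 11 called genes. The nuclear points of all 11 lie to the right of their mRNA points, with ATP5MF-PTCD1 at 0 in mRNA and ARMCX5-GPRASP2 at the bottom with overlapping points.

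After IM for 1 h no member was called in either fraction, beside 0.0166% of all tested genes in mRNA and 0.0456% in nuclear RNA (0.00456% higher and 0.041% lower). At an unadjusted p under 0.05 there were 0 members in mRNA and 2 in nuclear RNA, and DESeq2 also called 0 in both. The share of all genes at this unadjusted limit is not given, here or below. Such counts are therefore not read as results about the members. In both fractions almost no gene at all was called at this time.

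After IM for 6 h, 2 of 19 members in mRNA rose and 1 fell, beside 5.82% and 4.12% of all tested genes, or 9.94% in either direction. TLCD4-RWDD3 joins a membrane protein to a protein that promotes SUMO conjugation. It rose from 0.441, 0.367 and 0.223 CPM in CTRL to 1.64, 1.12 and 0.825, with no overlap (log2 fold change 1.79 ± 0.52, adjusted p = 0.0210, edgeR). Its upstream gene TLCD4 rose as well (1.54 ± 0.24), and its 333 own bases lie opposite RWDD3-DT, which had 2.36 ± 0.72 (adjusted p = 0.0268). SUGT1P4-STRA6LP, a joined pair of pseudogenes, rose from 0.606, 1.52 and 1.06 CPM to 2.24, 2.18 and 2.69 (1.15 ± 0.33, adjusted p = 0.0190). PKD1P6-NPIPP1, also made of pseudogenes, fell from 1.98, 1.36 and 2.06 CPM to 1.12, 1.06 and 0.825 (-0.83 ± 0.27, adjusted p = 0.0342), as did PKD1P6 (-0.67 ± 0.18). None of the 3 calls remained without CTRL replicate 3, nor without replicate 3 of every group, where the adjusted p ran from 0.0825 to 0.185. Without CTRL replicate 1 or IM 6 h replicate 3, TLCD4-RWDD3 was the 1 member called. The adjusted p of its own rise was 0.0543 with CTRL replicate 2 left out and 0.107 with IM 6 h replicate 1 left out. The call of PKD1P6-NPIPP1 was also lost without IM 6 h replicate 2 (adjusted p = 0.0585).

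After IM for 18 h, 2 of 19 members rose and 3 fell in mRNA, beside 17.2% and 13.2% of all tested genes. The share of members called, 26.3%, was near the 30.5% of all genes. JMJD7-PLA2G4B, which joins a lysyl hydroxylase to a cytosolic phospholipase, stood at 1.38, 0.576 and 1.28 CPM in CTRL and at 2.82, 3.63 and 2.37 after IM. The groups did not overlap, and the log2 fold change was 1.45 ± 0.31 (adjusted p = 0.000661, edgeR). Its upstream gene JMJD7 had 0.90 ± 0.68 and was not called. PPT2-EGFL8 rose from 0.992, 0.733 and 0.948 CPM to 1.90, 1.95 and 2.53 (1.25 ± 0.34, adjusted p = 0.00482). Both of its parents rose too, PPT2 by 1.09 ± 0.19 and EGFL8 by 1.81 ± 0.31. PKD1P6-NPIPP1 fell further, to 0.760, 0.895 and 0.495 CPM (-1.32 ± 0.28, adjusted p = 0.000555), and so did PKD1P6 (-1.21 ± 0.19) and NPIPP1 (-1.04 ± 0.19). Of the genes opposite its own bases, ENSG00000260735 had -1.23 ± 0.56 (adjusted p = 0.0764) and was not called. These 3 calls stayed when any 1 library, or replicate 3 of every group, were left out.

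SENP3-EIF4A1 joins a SUMO protease to an RNA helicase that starts translation, and its 422 own bases lie outside both parents. It was not named by the fixed rule, because its mean level was under 1 CPM in every mRNA group, and was picked out after its values were seen. Its counts were 5, 1 and 7 in the CTRL mRNA libraries and 0, 1 and 1 after IM for 18 h, which overlap at 1 count. The log2 fold change was -2.54 ± 0.80 (adjusted p = 0.0130, edgeR), against -0.84 ± 0.20 for SENP3. With CTRL replicate 3 left out it was -2.04 (adjusted p = 0.0955), and with IM 18 h replicate 1 left out -2.03 (adjusted p = 0.0634), neither of them a call. P2RX5-TAX1BP3, which joins an ATP-gated ion channel to a PDZ domain protein, had -1.11 ± 0.41 (adjusted p = 0.0291), beside -1.77 ± 0.59 for P2RX5. This call was lost when any of CTRL replicate 1, CTRL replicate 3 and IM 18 h replicate 1 was left out (adjusted p from 0.0527 to 0.172). Without replicate 3 of every group neither of these falls was called (adjusted p = 0.0924 and 0.160). Leaving out IM 18 h replicate 1 alone brought the count of calls from 5 to 3.

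In nuclear RNA after IM for 18 h, 2 of 27 members rose and 3 fell, beside 17.2% and 15.4% of all tested genes. SUGT1P4-STRA6LP stood at 2.77, 2.37 and 2.67 CPM in CTRL and at 6.49, 5.16 and 5.38 after IM (1.13 ± 0.20, adjusted p = 0.000130, edgeR). PPT2-EGFL8 stood at 4.16, 4.28 and 5.30 CPM and then at 8.45, 7.89 and 8.72 (0.87 ± 0.16, adjusted p = 0.000191), with PPT2 (0.95 ± 0.12) and EGFL8 (1.65 ± 0.19) higher too. Of its 1365 own bases, 982 lie opposite another gene. Of the genes there, PRRT1 rose (1.65 ± 0.13) and AGPAT1 had 0.59 ± 0.13, just under the fold limit. In mRNA both rose (1.52 ± 0.18 and 0.62 ± 0.11), and their part in the counts of PPT2-EGFL8 was not tested. PKD1P6-NPIPP1 fell (-0.97 ± 0.25, adjusted p = 0.00291), and so did ENSG00000260735 opposite its own bases (-0.93 ± 0.25, adjusted p = 0.00432), whose part in its counts was not tested. TIMM23B-AGAP6, which joins a copy of a mitochondrial protein import gene to a GTPase-activating protein, fell as well (-0.80 ± 0.23, adjusted p = 0.00698). For both members, each tested parent fell by between 0.76 and 1.25 on the log2 scale. The fifth call, ATP5MF-PTCD1 (-1.30 ± 0.49, adjusted p = 0.0340), rested on 4, 4 and 10 counts against 13, 13 and 21, and PTCD1 fell too (-0.65 ± 0.17). Leaving out any of 4 libraries, numbers 2 and 3 of CTRL and numbers 1 and 2 of IM 18 h, ended this call (adjusted p from 0.0505 to 0.185), and the value was -2.02 without IM 18 h replicate 3. Leaving out that last library brought the count of calls from 5 to 8 by adding FPGT-TNNI3K (2.09), ZNF559-ZNF177 (1.59) and ZNF8-ERVK3-1 (-0.61). With the replicate number as a block 6 members were called, the same 5 and ZNF559-ZNF177 (1.32, adjusted p = 0.0439). The share of all genes called with this block is not given. In the main fit ZNF559-ZNF177 passed the filter on low counts only with the libraries of both IM 18 h and KCl 1 h. The filter thus favoured a rise for it.

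**Figure D3:**
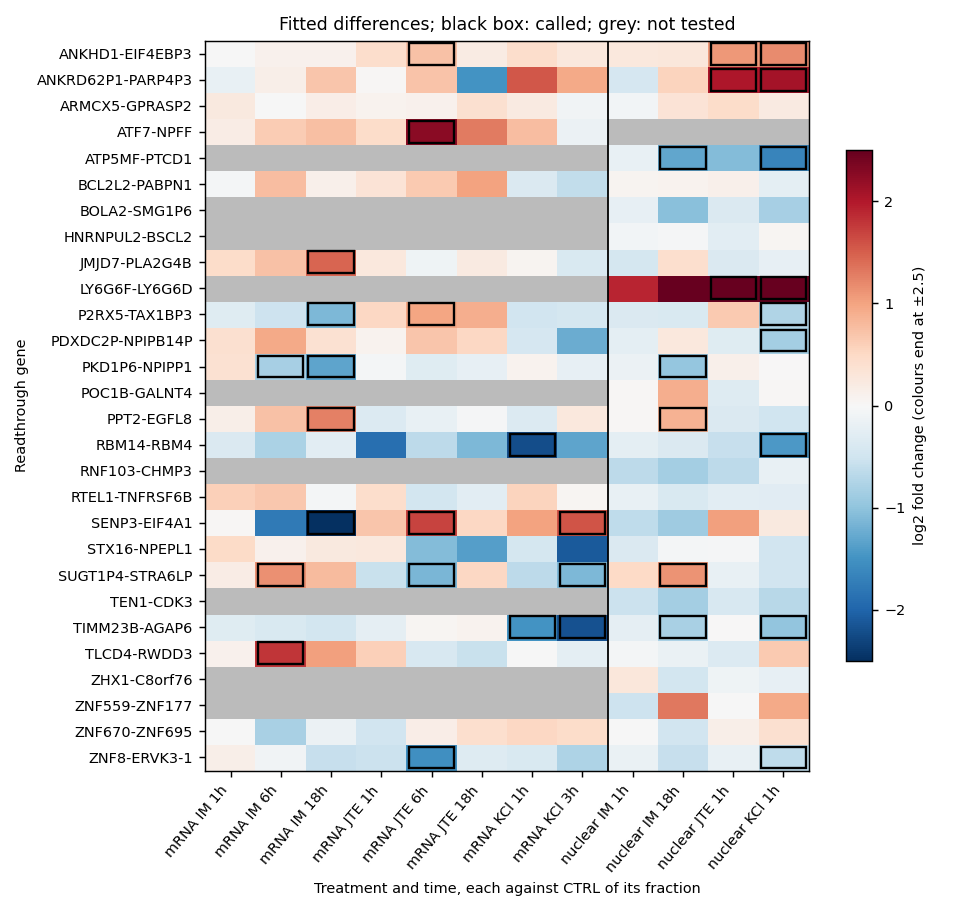
Fitted log2 fold changes of the 28 readthrough genes that passed the low-count filter in at least 1 fraction (rows) in the 12 comparisons with CTRL (columns, mRNA left of the line and nuclear RNA right of it). Black boxes mark the 36 calls; grey cells were not tested, and LY6G6F-LY6G6D exceeds the colour range.

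After JTE for 1 h no member was called in mRNA, beside 0.851% of all tested genes (0.387% higher and 0.464% lower); 2 members had an unadjusted p under 0.05, and DESeq2 called 0. One of them was RBM14-RBM4, which stood at 1.49, 0.629 and 1.06 CPM in CTRL and at 0.262, 0.311 and 0.267 after JTE. These groups did not overlap, but the log2 fold change of -1.89 ± 0.55 had an adjusted p of 0.128 (edgeR). With no low-count filter it was called (-1.88, adjusted p = 0.0266). In nuclear RNA it had -0.58 ± 0.18 (adjusted p = 0.0488), under the fold limit of 0.6.

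In nuclear RNA after JTE for 1 h, 3 of 27 members rose and 0 fell, beside 7% and 1.51% of all tested genes. ANKHD1-EIF4EBP3 joins a protein of ankyrin repeats and a KH domain to a repressor of translation initiation. It stood at 3.17, 2.82 and 3.42 CPM in CTRL and at 7.01, 7.30 and 5.69 after JTE, well apart (1.09 ± 0.18, adjusted p = 0.000413, edgeR). Neither ANKHD1 (0.10 ± 0.15) nor EIF4EBP3 (0.63 ± 0.40) was called. All of its 2441 own bases lie opposite SRA1, a gene for a noncoding RNA coactivator, whose exons they do not touch and which had -0.01 ± 0.095. ANKRD62P1-PARP4P3, a joined pair of pseudogenes that lies opposite TPTEP1 (-0.11 ± 0.11), rose from 0.402, 0.410 and 0.644 CPM to 1.69, 1.60 and 2.62 (2.03 ± 0.35, adjusted p = 0.000588). Its parents had 1.32 ± 1.12 and 0.91 ± 0.39 and were not called. These 2 calls stayed when any 1 library was left out.

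The other call after JTE for 1 h was LY6G6F-LY6G6D, which joins a pair of LY6 surface protein genes of the major histocompatibility region and was picked out after its values were seen. It had 0 counts in all 3 CTRL libraries and 4, 2 and 5 after JTE, so that its mean level of 0.154 CPM was close to the 0.140 CPM that 3 counts in a CTRL library amount to. The call (adjusted p = 0.0467) was lost when any 1 of the 6 libraries was left out (adjusted p from 0.0579 to 0.131). The replicate numbers paired the nuclear libraries, and with the replicate number as a block 5 members were called: the same 3, SENP3-EIF4A1 (1.01, adjusted p = 0.0284) and P2RX5-TAX1BP3 (0.65, adjusted p = 0.0451). The share of all genes called with the block is not given. SENP3-EIF4A1 had 14, 12 and 7 counts in CTRL and 32, 12 and 30 after JTE, and without the block its adjusted p was 0.0602.

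After JTE for 6 h, 4 of 19 members rose and 2 fell in mRNA, beside 6.73% and 6.47% of all tested genes. ANKHD1-EIF4EBP3 rose from 2.09, 1.36 and 2.40 CPM to 2.91, 3.93 and 2.87 (0.73 ± 0.20, adjusted p = 0.0114, edgeR), while ANKHD1 had -0.32 ± 0.23 and SRA1 -0.32 ± 0.11, neither of them called. P2RX5-TAX1BP3 rose from 0.716, 0.471 and 1.06 CPM to 1.49, 1.48 and 1.48 (0.99 ± 0.34, adjusted p = 0.0457). ZNF8-ERVK3-1 fell from 2.26, 1.52 and 2.84 CPM to 0.682, 1.25 and 0.383 (-1.53 ± 0.34, adjusted p = 0.00214), while ZNF8 had 0.31 ± 0.15 and ERVK3-1 had -0.22 ± 0.15. SUGT1P4-STRA6LP fell to 0.682, 0.228 and 0.527 CPM (-1.15 ± 0.39, adjusted p = 0.0427). For all but the last of these the treated libraries lay wholly outside the CTRL range, and for SUGT1P4-STRA6LP they overlapped.

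SENP3-EIF4A1 had 13, 18 and 11 counts after JTE for 6 h against 5, 1 and 7 in CTRL (1.69 ± 0.48, adjusted p = 0.0145, edgeR), while SENP3 fell (-0.72 ± 0.20, adjusted p = 0.0107). ATF7-NPFF, which joins a transcription factor to a neuropeptide precursor and was picked out after its values were seen, had 8, 14 and 12 counts against 1, 4 and 2 (2.25 ± 0.73, adjusted p = 0.0335). It passed the filter on low counts only with the libraries of both JTE 6 h and JTE 18 h, so the filter itself favoured a rise here. None of the 6 calls had a parent called in the same direction. Of the 6 calls 2 stayed without CTRL replicate 2 (ZNF8-ERVK3-1 and ATF7-NPFF). Without JTE 6 h replicate 2 only ZNF8-ERVK3-1 stayed, while FPGT-TNNI3K was added (2.67, adjusted p = 0.0165). ANKHD1-EIF4EBP3 (0.50 and 0.57, adjusted p = 0.122 and 0.0749) and SENP3-EIF4A1 (1.19 and 1.45, adjusted p = 0.104 and 0.0660) were lost in these 2 ways. ATF7-NPFF was lost when CTRL replicate 1, CTRL replicate 3, JTE 6 h replicate 2 or JTE 6 h replicate 3 was left out, P2RX5-TAX1BP3 without any library but CTRL replicate 3, and SUGT1P4-STRA6LP without any but CTRL replicate 1 and JTE 6 h replicate 1 (adjusted p of all these from 0.0617 to 0.236). ZNF8-ERVK3-1 was called whichever of the 6 libraries was left out. Without replicate 3 of every group only ANKHD1-EIF4EBP3 (0.97) and SENP3-EIF4A1 (2.44) were called, and ZNF8-ERVK3-1 was at -0.97 (adjusted p = 0.0719).

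After JTE for 18 h no member was called in mRNA, beside 5.39% of all tested genes, 3.29% higher and 2.09% lower. There were 3 members with an unadjusted p under 0.05, and DESeq2 called 0. P2RX5-TAX1BP3 stood at 1.27, 1.43 and 1.52 CPM, above all CTRL libraries, with 0.91 ± 0.34 (adjusted p = 0.103). RBM14-RBM4 had -1.12 ± 0.51 (adjusted p = 0.189).

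**Figure D4:**
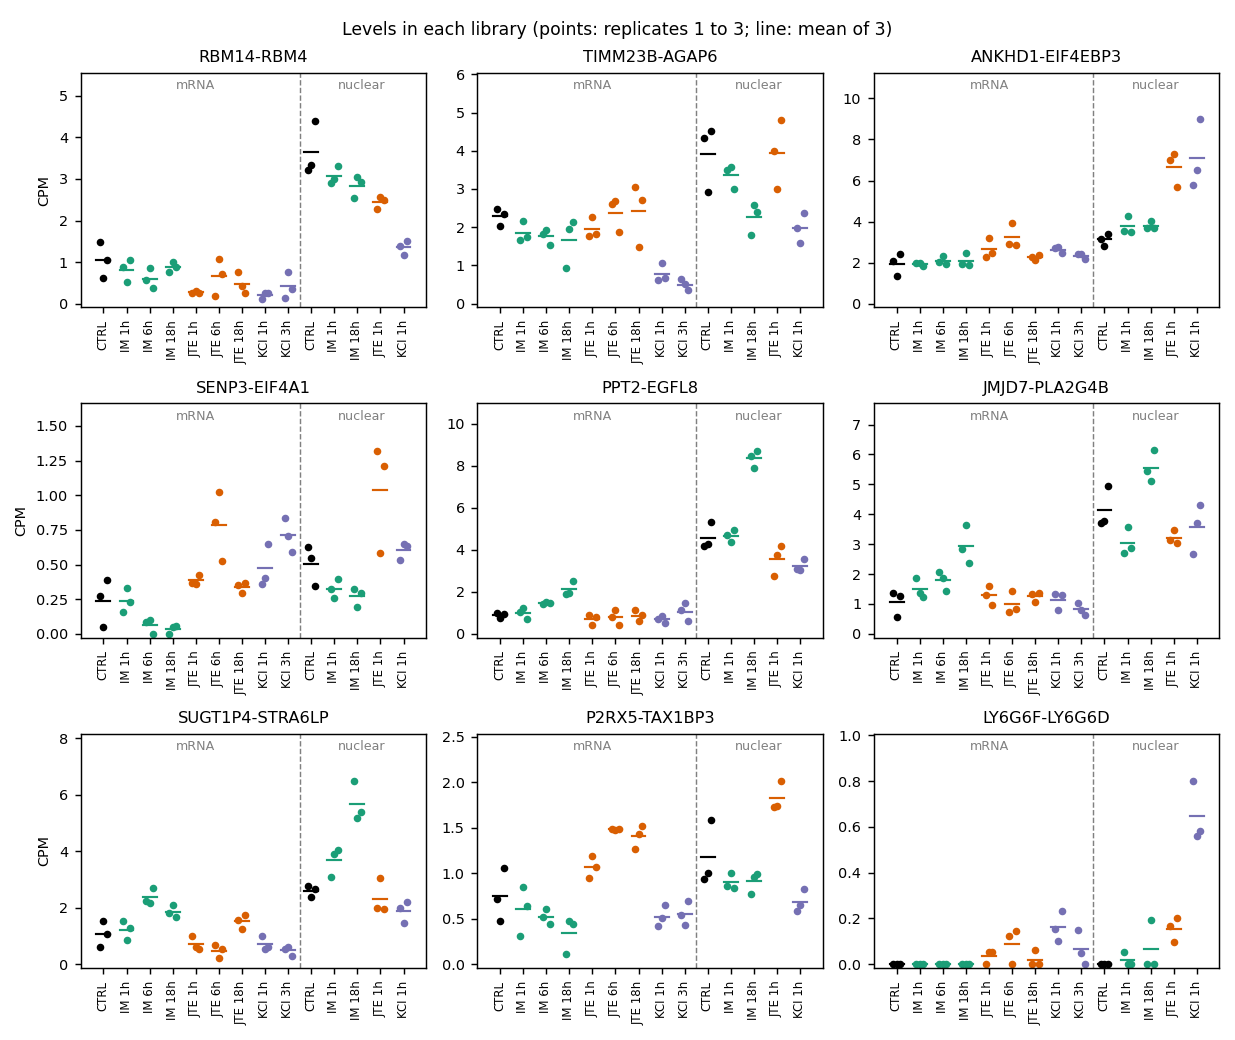
CPM of 9 readthrough genes in each of the 42 libraries, by group, with mRNA left and nuclear RNA right of the dashed line; points are the 3 replicates and the line is their mean, black for CTRL, green for IM, orange for JTE and purple for KCl. RBM14-RBM4 and TIMM23B-AGAP6 are lowest after KCl in nuclear RNA at 1 h, ANKHD1-EIF4EBP3 stands out after JTE and KCl in nuclear RNA, and LY6G6F-LY6G6D is at 0 in every CTRL library.

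After KCl for 1 h, 2 of 19 members fell in mRNA and 0 rose, beside 2.94% and 2.51% of all tested genes, or 5.45% in either direction. RBM14-RBM4 stood at 1.49, 0.629 and 1.06 CPM in CTRL, from 27, 12 and 19 counts, and at 0.104, 0.251 and 0.256 after KCl, from 2, 15 and 11 counts. The groups did not overlap (log2 fold change -2.22 ± 0.51, adjusted p = 0.00695, edgeR). RBM14 had -0.03 ± 0.15 and RBM4 -0.56 ± 0.22, and neither was called. TIMM23B-AGAP6 fell from 2.48, 2.04 and 2.34 CPM to 0.621, 1.06 and 0.674 (-1.49 ± 0.29, adjusted p = 0.00171). TIMM23B (-0.11 ± 0.13) and AGAP6 (-0.09 ± 0.14) were not called. The RBM14-RBM4 call was lost without CTRL replicate 1 (-1.90, adjusted p = 0.0656). Without replicate 3 of every group neither was called (-2.33 and -1.34, adjusted p = 0.0923 and 0.0535).

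After KCl for 3 h, 1 of 19 members rose and 2 fell, beside 4.55% and 7.33% of all tested genes. TIMM23B-AGAP6 stood at 0.636, 0.520 and 0.346 CPM, again below every CTRL library (-2.18 ± 0.33, adjusted p = 4.21e-05, edgeR). TIMM23B (-0.60 ± 0.14) and AGAP6 (-0.91 ± 0.14) were now called lower as well, and the member's call stayed when any 1 library was left out. SUGT1P4-STRA6LP had -1.13 ± 0.38 (adjusted p = 0.0466) and SENP3-EIF4A1 1.57 ± 0.48 (adjusted p = 0.0262), from 17, 15 and 12 counts against 5, 1 and 7. SUGT1P4-STRA6LP was not called without CTRL replicate 2 or 3 or any KCl 3 h library, and SENP3-EIF4A1 was not without CTRL replicate 1 or 2 or KCl 3 h replicate 1 or 2 (adjusted p of both from 0.0529 to 0.262). Without replicate 3 of every group the counts were 1 higher, SENP3-EIF4A1 (2.18), and 1 lower, TIMM23B-AGAP6 (-1.99). RBM14-RBM4 had -1.32 ± 0.51 and was not called (adjusted p = 0.0877), though it was without KCl 3 h replicate 2 (-2.08, adjusted p = 0.0225).

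In nuclear RNA after KCl for 1 h, 3 of 27 members rose and 6 fell, beside 15.3% and 8.5% of all tested genes. RBM14-RBM4 stood at 3.22, 3.33 and 4.41 CPM in CTRL, from 72, 73 and 89 counts, and at 1.39, 1.16 and 1.504 after KCl, from 26, 25 and 31 counts. These counts were larger than those in mRNA, and the groups did not overlap (-1.43 ± 0.20, adjusted p = 1.04e-05, edgeR). RBM4 fell as well (-0.80 ± 0.11), whereas RBM14 had -0.26 ± 0.13. TIMM23B-AGAP6 fell from 4.34, 2.92 and 4.51 CPM to 1.97, 1.58 and 2.38 (-0.98 ± 0.23, adjusted p = 0.00248), more than TIMM23B (-0.47 ± 0.10) and AGAP6 (-0.13 ± 0.10). PDXDC2P-NPIPB14P, a joined pair of pseudogenes, fell from 3.35, 2.87 and 3.66 CPM to 1.97, 1.44 and 2.09 (-0.85 ± 0.23, adjusted p = 0.00705), and neither parent was tested.

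ANKHD1-EIF4EBP3 rose from 3.17, 2.82 and 3.42 CPM to 5.76, 6.52 and 8.98 after KCl (1.18 ± 0.18, adjusted p = 3.30e-05, edgeR), with ANKHD1 at 0.06 ± 0.15 and SRA1 at 0.04 ± 0.095. ANKRD62P1-PARP4P3 rose to 2.45, 1.49 and 2.28 CPM (2.09 ± 0.35, adjusted p = 9.19e-05). Its upstream gene ANKRD62P1 rose by 4.66 ± 0.74. LY6G6F-LY6G6D had 0 counts in the 3 CTRL libraries and 15, 12 and 12 after KCl, a mean of 0.647 CPM, which is at least 4.62-fold higher than 3 counts in a CTRL library (adjusted p = 0.000117). It passed the filter on low counts through the KCl libraries alone, so it had to differ. Its upstream gene LY6G6F was called higher too. In mRNA LY6G6F-LY6G6D had 0 counts in CTRL and 3, 6 and 10 after KCl for 1 h, too few to be tested.

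The remaining falls in nuclear RNA after KCl were smaller or rested on few counts. ZNF8-ERVK3-1 had -0.64 ± 0.17 (adjusted p = 0.00769, edgeR), beside -1.06 ± 0.14 for ERVK3-1. Without KCl replicate 2 it was at -0.50 (adjusted p = 0.0562). ATP5MF-PTCD1 had 1, 7 and 6 counts against 13, 13 and 21 (-1.65 ± 0.51, adjusted p = 0.0183), and was not called without CTRL replicate 3 (-1.35, adjusted p = 0.0966) or KCl replicate 1 (-1.23, adjusted p = 0.0824). P2RX5-TAX1BP3 had -0.76 ± 0.28 (adjusted p = 0.0487) and was not called without CTRL replicate 3 or KCl replicate 1 or 2 (adjusted p from 0.121 to 0.284).

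Across the 12 comparisons with CTRL there were 36 calls, 17 higher and 19 lower, on 16 members in 8 comparisons. The comparisons of a fraction share their 3 CTRL libraries, so the calls are not independent of each other. In 15 of the 36 calls a parent was called in the same direction and in 21 none was. The upstream gene was tested beside 31 of the calls, called in the same direction in 12, and its log2 fold change was smaller in size than that of the member in 26. The downstream gene was tested beside 24 calls, called in the same direction in 9, and smaller in size in 20. A member is counted on far fewer bases than its parents, and its errors are larger. After IM for 18 h in nuclear RNA, 4 of 5 calls went with a parent, whereas after JTE for 6 h 0 of 6 did, and these shares were not tested against each other. The filter on low counts passed few members, and one that passed through a single high group had to differ, so the counts describe the tested members only.

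**Figure D5:**
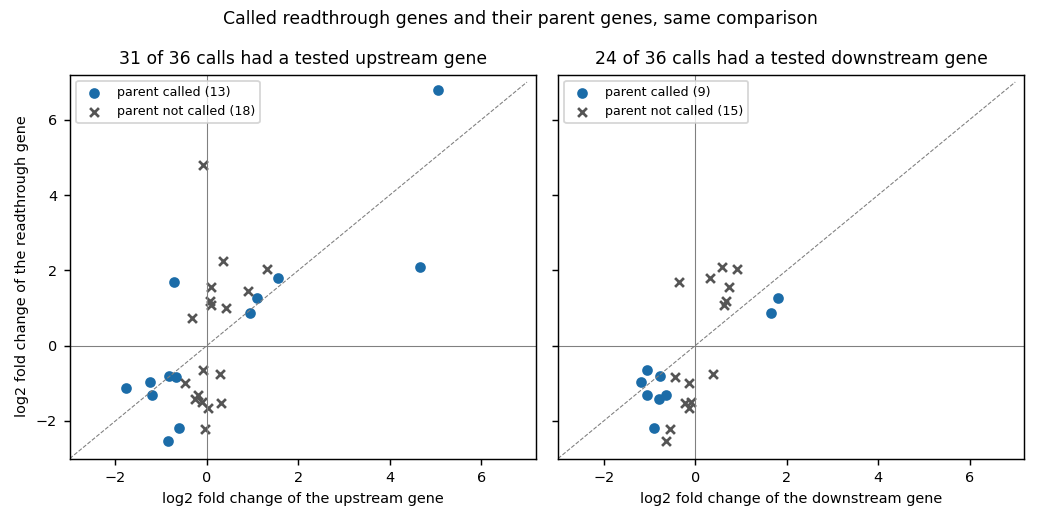
Log2 fold change of the readthrough gene against that of its upstream gene (left, 31 calls) and its downstream gene (right, 24 calls) in the same comparison with CTRL; the dashed line marks equal change, circles are called parents and crosses parents that were not. Most points lie farther from 0 on the vertical axis than on the horizontal one, and many crosses sit near 0 on the horizontal axis.

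Whether nuclear RNA and mRNA responded differently was tested as an interaction in 1 fit of the 12 libraries concerned. No member was called after IM 1 h, IM 18 h, JTE 1 h or KCl 1 h, beside 0%, 0.0901%, 0.0605% and 0.668% of all tested genes. The genes called with a higher response in nuclear RNA were 0%, 0.0551%, 0.0555% and 0.588%, and those with a lower one 0%, 0.0351%, 0.00504% and 0.0806%. At an unadjusted p under 0.05 there were 3, 2, 2 and 1 members of 24, 22, 23 and 24 tested, and DESeq2 called 0 in each. The share of all genes at this unadjusted limit is not given. ANKHD1-EIF4EBP3 differed by 0.67 ± 0.32 after JTE 1 h (adjusted p = 0.855, edgeR) and by 0.63 ± 0.33 after KCl 1 h (adjusted p = 0.583). RBM14-RBM4 differed by 1.34 ± 0.45 after JTE 1 h (adjusted p = 0.629) and by 0.68 ± 0.47 after KCl 1 h (adjusted p = 0.754), both toward a smaller fall in nuclear RNA. ANKRD62P1-PARP4P3 differed by 2.03 ± 0.58 after JTE 1 h (adjusted p = 0.453). None of these differences was called after adjustment over all genes tested, and the smallest difference that could be detected at this depth was not computed.

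Members were also grouped in lists by function, and a list can hold members whose parts act elsewhere. The list for RNA metabolism and translation held 21 members, among them STX16-NPEPL1, TEN1-CDK3 and NME1-NME2, which have no such part. Of the 6 members of this list tested in nuclear RNA, STX16-NPEPL1 and TEN1-CDK3 included, 1 rose and 1 fell after KCl (ANKHD1-EIF4EBP3 and RBM14-RBM4). This stood beside 23.8% of all genes called, and the median of the 6 was -0.36 beside 0.02 over all genes tested. After JTE 1 h 1 of them rose (ANKHD1-EIF4EBP3), beside 8.52% of all genes called. Of the 5 tested in mRNA, 1 fell after IM 18 h, 2 rose after JTE 6 h, 1 fell after KCl 1 h and 1 rose after KCl 3 h, where 30.5%, 13.2%, 5.45% and 11.9% of all genes were called in the same order. Of 11 members in the mitochondrial list, 2 were tested in nuclear RNA (TIMM23B-AGAP6 and ATP5MF-PTCD1). Both fell after IM 18 h and after KCl 1 h, beside 32.6% and 23.8% of all genes called. In mRNA 1 was tested, and it fell after KCl at 1 and 3 h, beside 2.94% and 7.33% of all genes called lower. Of 15 members in the list for the cell surface and immunity only PPT2-EGFL8, a lysosomal and secreted pair, was tested. It rose after IM 18 h in both fractions, beside 17.2% of all genes called higher in each. That list leaves out LY6G6F-LY6G6D, P2RX5-TAX1BP3 and RTEL1-TNFRSF6B, which have a surface or receptor part and were tested. Of 13 members with a part in ubiquitin, vesicles or the cytoskeleton, 2 were tested in nuclear RNA, with no call against CTRL. Of 7 zinc finger pairs, 3 were tested in nuclear RNA and 2 in mRNA, and ZNF8-ERVK3-1 gave their only calls against CTRL. It fell after JTE 6 h in mRNA and after KCl 1 h in nuclear RNA, beside 6.47% and 8.5% of all genes called lower. The other 64 members were in none of these lists.

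The genes of 3′ end formation were set beside them, as 22 subunits and partners of the cleavage, polyadenylation and termination machinery, all tested in both fractions. After JTE 1 h 1 was called in each fraction, beside 0.851% of all genes in mRNA and 8.52% in nuclear RNA. It was PCF11, a termination factor that binds the polymerase (0.90 ± 0.11 in mRNA, adjusted p = 7.23e-05, and 0.88 ± 0.12 in nuclear RNA, adjusted p = 3.94e-05, edgeR). After JTE 6 h, PCF11 (1.42 ± 0.12), CSTF3 (1.36 ± 0.10) and RBBP6 (1.27 ± 0.13) rose and CPSF4 fell (-0.75 ± 0.10), and the first 3 were still higher after 18 h, by 0.65 to 0.66, beside 13.2% of all genes called at 6 h and 5.39% at 18 h. After IM 18 h, CSTF2 and CLP1 fell in both fractions, CLP1 by 1.03 in mRNA and by 1.07 in nuclear RNA, beside 30.5% and 32.6% of all genes called. RBBP6 rose after KCl 3 h (1.01 ± 0.13, with 11.9% of all genes called), and none of the 22 was called after KCl 1 h in either fraction, beside 5.45% and 23.8%.

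ARPC4-TTLL3, of an actin-nucleating complex subunit and a tubulin-modifying enzyme, could not be tested in either fraction. It has 7 own bases. Its counts ran from 0 to 6 per library, with 2, 6 and 3 in mRNA CTRL, 0, 2 and 0 after IM 18 h, 6, 4 and 2 in nuclear CTRL and 6, 5 and 1 after nuclear IM 18 h. The groups overlapped, and the counts were too few to show whether they differed. COX6A1-GATC, ZNF649-ZNF577 and DMC1-DDX17, further chimeras that were looked for, are not rows of their own under these names. RBM14-RBM4 was not called after IM at any time in either fraction. In mRNA it had 27, 12 and 19 counts in CTRL and 14, 19 and 16 after IM 18 h, within the CTRL range. In nuclear RNA it stood at 3.22, 3.33 and 4.41 CPM in CTRL and at 2.531, 3.059 and 2.925 after IM 18 h, below that range.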

How the data were processed

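The values are counts of read pairs per gene as deposited: the authors trimmed and deduplicated the reads, aligned them to hg38 with STAR, kept unique alignments with introns of at most 10000 bases, and counted pairs on exons with featureCounts. Pairs that stayed ambiguous between genes were dropped. Unique mapping makes members in duplicated regions (PKD1P6-NPIPP1, PDXDC2P-NPIPB14P, TIMM23B-AGAP6, ANKRD62P1-PARP4P3) uncertain. Deduplication without molecular identifiers can lower counts, and floors cover only the error of counting. Which annotation release was used is not given in the sources used here; own bases come from the exon coordinates in the deposited files, and all 128 members overlap their GENCODE 44 span.

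All genes of a fraction were fitted together with edgeR 4.0.16 in R 4.3.3 (TMM, filterByExpr, robust quasi-likelihood test, 1 term per group), at Benjamini-Hochberg adjusted p under 0.05 and log2 fold change beyond 0.6. The script was tested on simulated data. Alternatives were DESeq2 1.42.0, DESeq2 size factors, no filter, a replicate block, only the 2 groups, and each library left out. Same-numbered nuclear libraries deviated together (correlations from 0.233 to 0.89 in all 4 groups), so the numbers pair them. In mRNA every same-number correlation was over 0.1 in 0 of 8 groups. Replicates differed by more than sampling noise (chi-square per gene at least 2.37).

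Named were 5 chimeras the study followed (not all that it examined), the 5 members with the highest mean CPM in each fraction, and per comparison the 3 largest called rises and falls with at least 1 CPM in the higher group (between fractions, the 3 largest called differences). The members and lists were chosen with earlier results of these data known.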

Additional observations from a re-analysis of the deposited data

How the results depend on the processing

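Under alternative settings other than leaving out libraries, 72 of 80 counts of called members stayed within 1.5 times, and no called member changed direction under any setting run. The share of all genes called under each alternative, leaving out libraries included, is not given. A moved count of members is thus not read against genes at large. Counts of 0 that stayed 0, as after IM 1 h and in the interactions, are among those that stayed. A count can also stay while the members called change. Without other groups in the fit, the count went from 3 to 1 after IM 6 h, from 5 to 3 after IM 18 h, from 6 to 0 after JTE 6 h and from 3 to 1 after KCl 3 h, all in mRNA. These fits also passed fewer genes through the low-count filter, and 5 of the 36 calls against CTRL were not tested in them, among them both that were missing after IM 18 h. The cause was not tested. DESeq2 gave 1 after KCl 3 h, and no low-count filter gave 1 after JTE 1 h. The replicate block kept all 47 calls. In nuclear RNA it gave 5 after JTE 1 h and 6 after IM 18 h, and in mRNA 1 after JTE 18 h (BCL2L2-PABPN1), 6 after IM 18 h (adding SUGT1P4-STRA6LP) and 4 after KCl 3 h (adding PDXDC2P-NPIPB14P). In mRNA the numbers as labelled did not pair the libraries with CTRL: all 8 treated libraries numbered 1 correlated best with CTRL replicate 2, all 8 numbered 2 with CTRL replicate 1, and 6 of 8 numbered 3 with CTRL replicate 3. The study's supplement also lists 19031221 mapped pairs for mRNA CTRL replicate 1 and 18333127 for replicate 2. The counts labelled CTRL replicates 1 and 2 here total 18333127 and 19031221, the other way round. From both the correlations and these totals, CTRL replicates 1 and 2 may carry each other's number. No exchanged pairing was run, so the blocked mRNA values, and that between fractions, may join libraries that do not belong together. Without mRNA replicate 3 of every group the counts were 0 after IM 6 h, 3 after IM 18 h, 2 after JTE 6 h and 0 after KCl 1 h. Leaving out 1 library gave 0 to 3 calls after IM 6 h, 3 to 7 after IM 18 h, 2 to 5 after JTE 6 h, 1 to 3 after KCl 1 h and 1 to 2 after KCl 3 h in mRNA. In nuclear RNA it gave 4 to 8 after IM 18 h, 2 to 3 after JTE 1 h and 7 to 10 after KCl 1 h, and 10 to 12 between the untreated fractions. Of 47 calls, 28 were never lost this way. DESeq2 kept 38 of the 47, DESeq2 size factors 46 and no low-count filter 39. Few counts per member limit the precision: most members could not be tested.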

Other observations

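FPGT-TNNI3K, which joins an enzyme of fucose recycling to a kinase of heart muscle, did not pass the low-count filter in either fraction and was picked out after its values were seen. In mRNA it had 3, 1 and 1 counts in CTRL and 13, 9 and 8 after IM for 18 h. In nuclear RNA it had 5, 3 and 3 counts in CTRL and 21, 13 and 6 after IM for 18 h. The groups did not overlap in either fraction, and with no low-count filter edgeR called it higher in both (log2 fold change 2.42, adjusted p = 0.00917, and 1.85, adjusted p = 0.00465). After JTE for 6 h it had 13, 6 and 9 counts in mRNA (2.39, adjusted p = 0.0218, with no filter). All 6219 of its own bases lie in TNNI3K introns, and 5172 of them lie opposite another gene, whose part was not tested.

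Pairs were also assigned to the 44 members with no own base, and their number followed the library. In mRNA replicate 3 of the CTRL, JTE and KCl groups these members summed to between 0.784 and 0.988 per 1e+06 counts, against 0.096 to 0.533 in replicates 1 and 2 of the same groups. In replicate 3 of the IM groups the sums were 0.17 to 0.323 per 1e+06. The counts behind these values are small, 14 to 36 pairs in replicate 3 of the CTRL, JTE and KCl groups, and 262 over all mRNA libraries. In nuclear RNA the sums ran from 0.0618 to 0.531 per 1e+06. RTEL1-TNFRSF6B, whose own bases are mostly intronic, went the other way: it was lowest in replicate 3 in 7 of 9 mRNA groups, at 0.239 to 1.01 CPM against 0.557 to 2.84 in the other replicates.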
